A study of Mus musculus with 18 samples.

Results

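The genes described here are 41 mouse genes that dividing cells use to copy and divide their chromosomes, measured in bone marrow-derived macrophages, which keep dividing in culture while macrophage colony-stimulating factor (M-CSF) is present. They were chosen by symbol and matched to the Entrez gene identifiers of 2 count tables. All 41 were found among the 24052 genes of each table. Of these, 39 had enough reads to be tested in experiment 1, where Mcm5 and Tk1 did not, and 19 in experiment 2. In the vehicle libraries every one of the 41 genes had at least 1 read in all 3 libraries.

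Cells came from C57BL/6 bone marrow grown in 20 ng/ml M-CSF, and polyadenylated RNA was sequenced from the 3′ end. Experiment 1 had 4 groups of 3 libraries, all of wild-type cells. The first group had 12 h in 0.25 mM dimethyl itaconate (DI), an ester of the macrophage metabolite itaconate that enters cells, and then 4 h with 100 ng/ml lipopolysaccharide (LPS), the bacterial cell wall component that activates macrophages. The second had vehicle for 12 h and then LPS for 4 h, the third DI alone, and the fourth vehicle alone (Unst in the labels). Experiment 2 had 2 groups of 3 libraries, Irg1-/- and wild-type (WT) cells, both given 100 ng/ml LPS plus 50 ng/ml interferon gamma (IFNg) for 24 h and neither given DI. Irg1 is the older name of Acod1, the enzyme that makes itaconate. The labels do not give the vehicle, the age or sex of the mice, the design of the knockout, or whether replicates are separate animals or separate cultures, so p-values reflect variation among these libraries, which may be technical. Experiment 2 has no unstimulated group.

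A dividing cell first loads the Mcm2 to Mcm7 helicase onto origins with Cdc6, then copies its DNA with the sliding clamp Pcna and with nucleotides from Rrm1, Rrm2, Tyms and Tk1, and copies its methyl marks with Dnmt1 and Uhrf1. Mitotic cyclins with Cdk1, the Aurora, Polo and Bub kinases, kinesins, centromere proteins and condensin then separate the chromosomes, and Cdc20 and Ube2c direct the destruction of cyclins. Many of these genes are held off in resting cells by the DREAM and Rb complexes and switched on by E2F factors in S phase or by B-Myb and FoxM1 in G2. M-CSF drives division of macrophages in culture, and LPS is known to halt it.

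The promoters of these genes are shown for the sites through which that switching is known to work. The CCAAT box (letters CCAAT) binds the factor NF-Y, the cell cycle homology region or CHR (letters TTTGAA) binds DREAM and the B-Myb complex, and E2F sites were searched as TTTCCCGC, TTTGGCGC, TTTCGCGC and TTTGCCGC, all on both strands. RefSeq promoter windows of 300 bases (250 before and 50 after a transcript start, build GRCm38.p6) were given for 34 of the 41 genes, as 39 windows because 4 genes have more than 1 start. Mcm4, Ccna2, Aurkb, Kif20a, Tpx2, Smc4 and Stmn1 have no window here. Of the 39 windows, 82.1% held a CCAAT box, against 37.4% of all 32851 windows. A CHR was in 46.2% of them, against 17.9% of all windows, and an E2F site in 20.5%, against 2.26%. All 18 windows with a CHR also held a CCAAT box, which is 46.2% against 6.95% of all windows. Within the list, 7 of 13 genes for replication, nucleotide supply and methylation held an E2F site, against 1 of 21 other genes, and 2 of 13 held a CHR, against 15 of 21. The list was chosen as cell division genes, so a share above that of all promoters describes the choice. A match is no proof of binding, and the windows overlap where starts lie close together, as for Prc1.

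**Figure D1:**
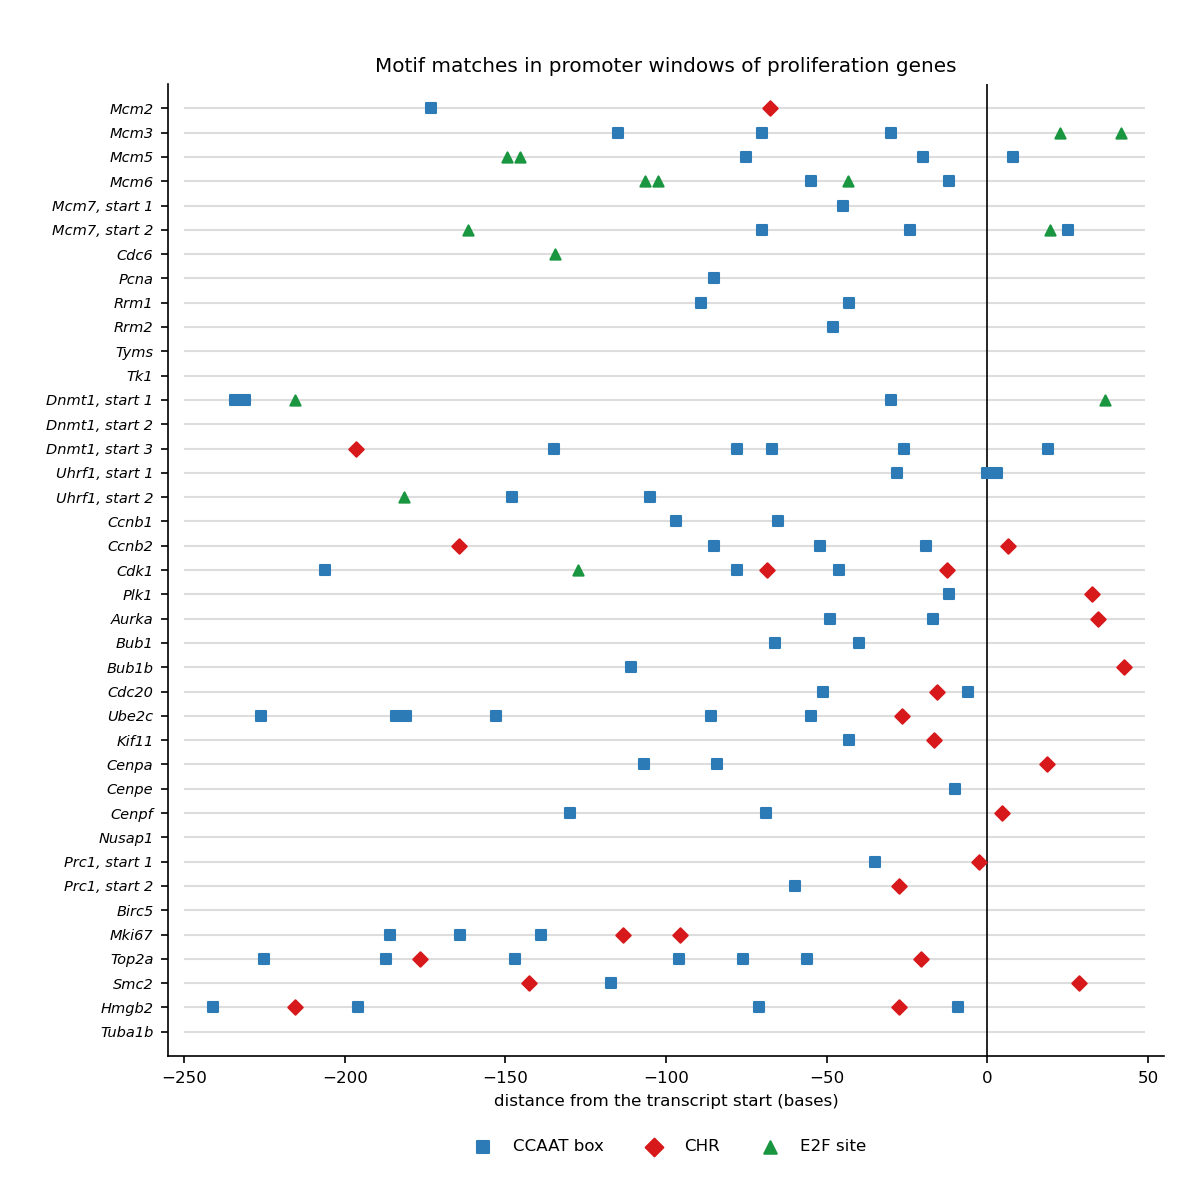
Each line is 1 of the 39 promoter windows, and each mark is a match to a CCAAT box (square), a CHR (diamond) or an E2F site (triangle) on either strand, placed by its distance in bases from the transcript start. E2F sites lie mostly in the replication genes at the top, where 7 of 13 genes hold one, and CHR matches in the mitotic genes below, where 15 of 21 do.

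The 5 windows below are those of genes that carry the results. Cenpa and Prc1 show the arrangement of CCAAT box and CHR, Mcm7 and Dnmt1 that of E2F site and CCAAT box, and Birc5 a window without any match. Capitals mark the matches, which appear as their reverse complements where the site lies on the other strand. In Mcm7 the last E2F site and the last CCAAT box share a base, and in Dnmt1 the first run of capitals holds a CCAAT box on each strand. Sequences are 5′ to 3′ on the strand of the gene, at chr5:30666636-30666935 (plus strand, Cenpa), chr7:80294201-80294500 (plus, Prc1), chr5:138171834-138172133 (minus, Mcm7), chr9:20952574-20952873 (minus, Dnmt1, 1 of 3 starts) and chr11:117848987-117849286 (plus, Birc5).
Cenpa: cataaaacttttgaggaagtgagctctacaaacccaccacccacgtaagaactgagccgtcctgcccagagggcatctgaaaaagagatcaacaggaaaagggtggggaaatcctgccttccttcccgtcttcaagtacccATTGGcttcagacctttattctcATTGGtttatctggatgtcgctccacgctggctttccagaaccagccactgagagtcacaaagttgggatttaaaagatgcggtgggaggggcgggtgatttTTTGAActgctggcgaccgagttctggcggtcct
Prc1 start 1: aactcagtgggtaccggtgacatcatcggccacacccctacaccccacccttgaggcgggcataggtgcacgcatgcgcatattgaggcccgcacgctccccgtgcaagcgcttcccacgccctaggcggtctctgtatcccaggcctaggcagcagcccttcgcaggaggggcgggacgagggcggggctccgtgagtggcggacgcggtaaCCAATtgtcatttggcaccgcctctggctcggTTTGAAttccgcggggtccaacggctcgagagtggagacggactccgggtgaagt
Mcm7 start 2: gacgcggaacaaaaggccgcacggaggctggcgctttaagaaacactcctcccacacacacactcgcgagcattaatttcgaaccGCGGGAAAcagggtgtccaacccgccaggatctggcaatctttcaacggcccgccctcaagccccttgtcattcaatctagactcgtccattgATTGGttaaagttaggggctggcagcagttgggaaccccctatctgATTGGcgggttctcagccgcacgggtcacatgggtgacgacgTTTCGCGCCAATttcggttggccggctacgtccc
Dnmt1 start 1: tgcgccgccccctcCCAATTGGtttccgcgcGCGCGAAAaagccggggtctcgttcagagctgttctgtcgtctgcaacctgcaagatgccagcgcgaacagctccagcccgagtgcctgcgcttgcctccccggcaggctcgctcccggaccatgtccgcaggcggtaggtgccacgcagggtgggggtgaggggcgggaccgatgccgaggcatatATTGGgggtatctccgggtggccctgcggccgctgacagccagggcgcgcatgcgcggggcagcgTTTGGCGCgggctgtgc
Birc5: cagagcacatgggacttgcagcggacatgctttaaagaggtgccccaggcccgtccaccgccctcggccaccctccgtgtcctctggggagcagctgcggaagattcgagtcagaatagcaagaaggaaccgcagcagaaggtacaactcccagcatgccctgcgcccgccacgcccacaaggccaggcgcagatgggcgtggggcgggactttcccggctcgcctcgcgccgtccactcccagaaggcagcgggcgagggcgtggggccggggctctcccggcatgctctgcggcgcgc

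Depth differed between libraries and was lowest in the LPS group. Totals ran from 955718 to 7629669 counts in experiment 1 and from 3088644 to 5491684 in experiment 2, and LPS replicate 3 was the shallowest. Scaling factors (TMM) ran from 0.576 to 1.47 and from 0.967 to 1.05. The LPS libraries also disagreed more among themselves: of genes for which the other 2 libraries of the same group predicted at least 10 reads, 2.50%, 2.09% and 4.33% were at 0 in LPS replicates 1, 2 and 3, while the remaining libraries of experiment 1 had 0.0892% to 0.264%. A gene at 0 in all 3 LPS libraries is therefore given as a bound, and results that rest on LPS replicate 3 are given with and without it. Levels are given as CPM, read counts scaled to a common library size with TMM. They come from 3′ ends and can be compared between libraries within a table, not between genes, and the 2 tables were scaled apart. The limit that a count of 0 allows, 3 reads, equals 0.993, 1.68 and 5.45 CPM in LPS replicates 1, 2 and 3. No molecular identifiers are described, so bounds and intervals cover counting error only.

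Macrophage markers were present throughout, summing to 4897 to 6008 CPM with DI plus LPS, 6017 to 6392 with LPS, 4695 to 5542 with DI and 6288 to 8981 with vehicle, with all 12 of 12 genes detected in each group. Markers of marrow progenitors, the other dividing cells such a culture could hold, summed to at most 21.8 CPM in any library of experiment 1. Cd34 and Flt3 were at 0 in every group, and none of the 10 progenitor genes had enough reads to be tested. Neutrophil markers summed to 451 to 569 CPM with DI plus LPS, 339 to 461 with LPS, 375 to 510.0 with DI and 382 to 453 with vehicle. Of 10 erythroid, megakaryocyte and mast cell markers, 4 were detected with DI plus LPS and 3 in each other group, summing to 246 to 363 CPM with DI plus LPS, 39.9 to 137 with LPS, 46.9 to 59.2 with DI and 64.7 to 76.8 with vehicle, with Hba-a1, Hbb-bs, Klf1 and Fcer1a among those at 0 in every group. That list was highest with DI plus LPS, and its part in the results was not tested. T and NK, B and plasma, dendritic and stromal cell lists summed to at most 5.44, 3.06, 32.7 and 69.0 CPM in any library of experiment 1. In bulk RNA, fewer dividing cells and less of a transcript per cell cannot be told apart, which holds for every result here.

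**Figure D2:**
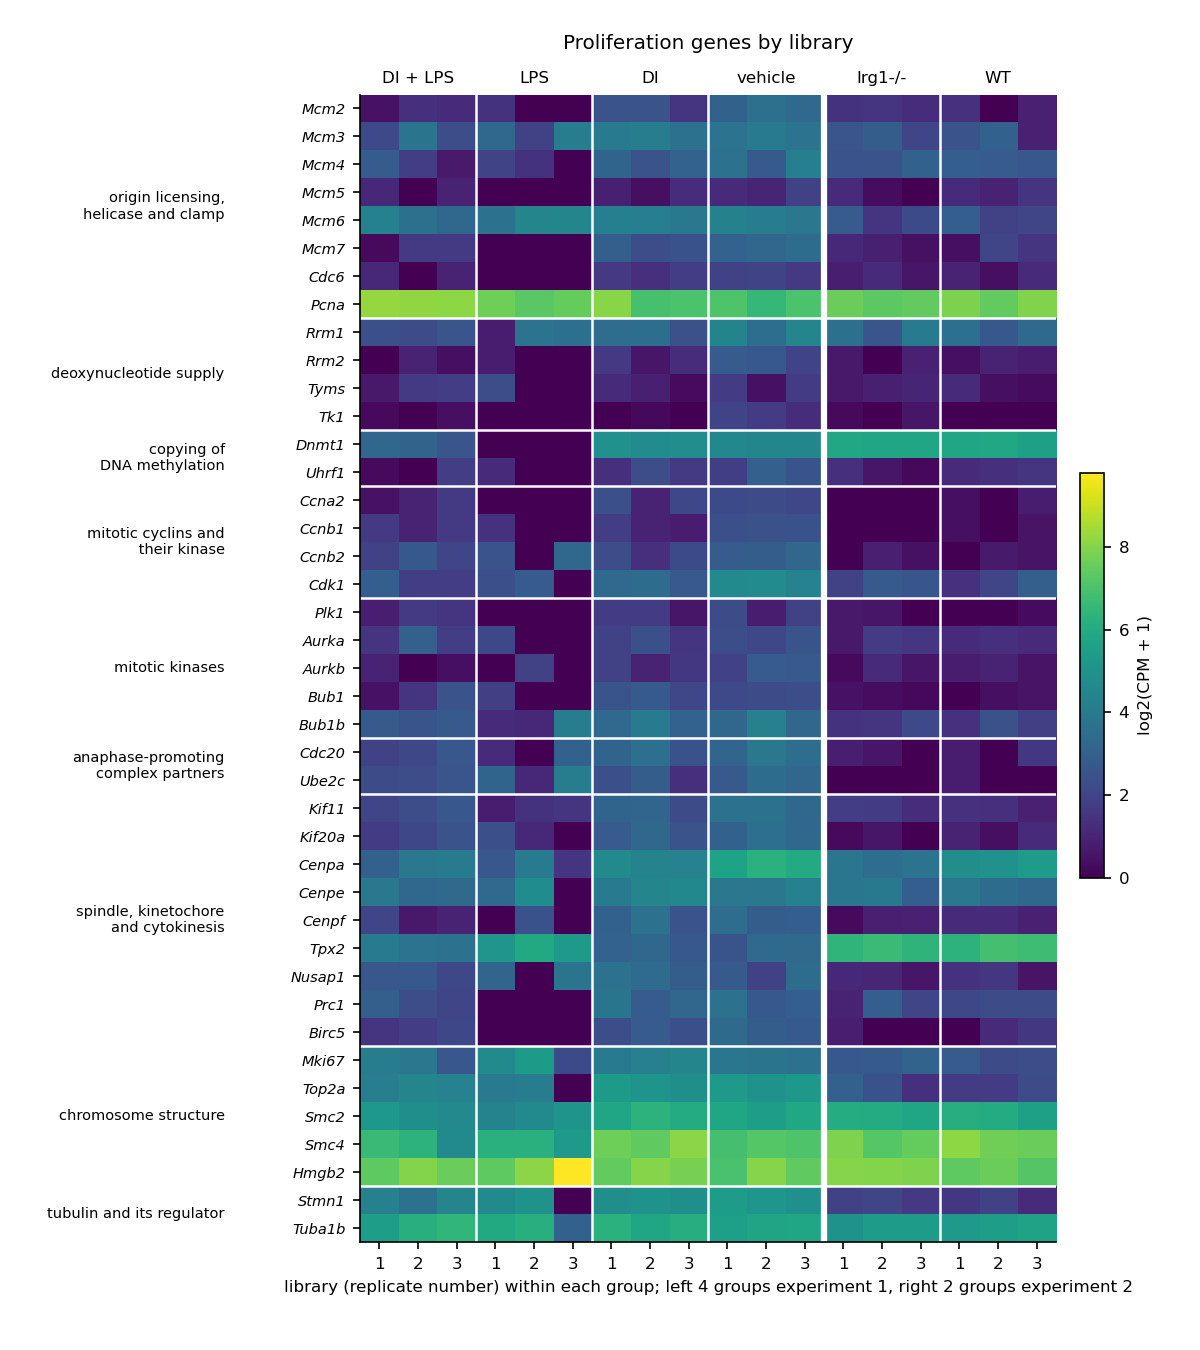
Rows are the 41 genes ordered by role, columns the 18 libraries in groups of 3, and colour is log2(CPM + 1), with experiments 1 and 2 scaled apart. The 3 LPS libraries held 11, 19 and 24 genes at 0, against none in the 3 vehicle libraries.

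Of 39 genes tested in LPS against vehicle libraries, 18 fell and 2 rose (adjusted p under 0.05, edgeR's quasi-likelihood test, Benjamini-Hochberg over all genes), where 18.4% and 16.0% of all 10285 genes fell and rose. The median log2 fold change over the 39 genes was −1.55, against −0.24 over all genes tested, and 33 of the 39 estimates were negative. The groups did not overlap for 26 of the 39 genes, against 44.0% of all genes. Without LPS replicate 3, 40 genes were tested, 18 fell and 2 rose, with a median of −1.75. With only the LPS and vehicle libraries in the fit, 10 fell and 1 rose. For both of these fits no share of all genes is given.

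Of 7 tested genes of helicase loading and the clamp, 4 fell. Mcm7 had 0, 0 and 0 CPM with LPS, against 7.48, 8.50 and 9.93 CPM with vehicle, so that all vehicle libraries lie above the LPS ones. It was at least 15.0-fold lower with LPS (adjusted p = 0.00079). Mcm2 averaged 0.552 ± 0.956 CPM with LPS and 9.26 ± 1.97 CPM with vehicle (SD, n = 3 each), a log2 fold change of −3.41 ± 0.90 (SE, adjusted p = 0.007), resting on 5 reads against 166. All 5 were in LPS replicate 1, so that without it the LPS group was at 0 (adjusted p = 0.0034). Mcm4 fell by 2.53 ± 0.79 on the log2 scale (adjusted p = 0.019), or by 3.28 without LPS replicate 1 (adjusted p = 0.023), and that call was lost without LPS replicate 2 (−2.35, adjusted p = 0.052) or vehicle replicate 3 (−2.15, adjusted p = 0.082). Cdc6, which loads the helicase, was at 0 in all LPS libraries and at least 4.67-fold lower (adjusted p = 0.014, and 0.056 without LPS replicate 1). Mcm5, too low to be tested, had 0, 0 and 0 CPM with LPS, against 1.26, 1.02 and 2.72 CPM with vehicle, a bound of 3.02-fold. The subunits did not move as one: Mcm6 had 11.9, 21.3 and 21.8 CPM with LPS, against 18.7, 16.3 and 13.8 CPM with vehicle (log2 fold change 0.12 ± 0.41, adjusted p = 0.84), and Mcm3 did not pass the test either (−0.67 ± 0.59). Pcna, the clamp and also a repair protein, had 197, 158 and 180 CPM with LPS, against 139, 91.1 and 130 CPM with vehicle, which do not overlap but did not pass the test (0.57 ± 0.32, adjusted p = 0.18).

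In nucleotide supply and in methylation 1 gene each fell. Rrm2, the S phase subunit of ribonucleotide reductase, had 0.662, 0 and 0 CPM with LPS, against 6.02, 5.44 and 2.88 CPM with vehicle. That is 2 reads against 96, a scaled ratio of 0.0758 (95% counting interval 0.00905 to 0.281, adjusted p = 0.023). The call was lost without LPS replicate 2 or without vehicle replicate 1 (adjusted p = 0.073 each), and without LPS replicate 1, which holds both reads, the LPS group was at 0 (adjusted p = 0.03). Its partner Rrm1 and the thymidylate synthase Tyms did not pass the test (log2 fold changes −1.31 ± 0.69 and 0.05 ± 1.04). Tk1, the thymidine kinase, was too low to be tested, at 0 with LPS and 2.28 ± 0.790 CPM with vehicle (n = 3), a bound of 4.30-fold. In the fit without LPS replicate 3 it had enough reads and was called lower (adjusted p = 0.037). Dnmt1, the maintenance methyltransferase (chr9:20907206-20959888, minus strand), had 0, 0 and 0 CPM with LPS, against 22.6, 21.4 and 21.5 CPM with vehicle. At vehicle levels 118 reads would have been predicted in the LPS libraries. It was at least 39.4-fold lower (adjusted p = 1.6e-06). Uhrf1, which guides Dnmt1 to newly copied DNA, had 4 reads with LPS and 77 with vehicle (−2.76 ± 1.19, adjusted p = 0.081).

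Among cyclins and kinases, Cdk1, the kinase of mitotic entry, averaged 3.49 ± 3.17 CPM with LPS and 23.3 ± 3.46 CPM with vehicle (n = 3 each), a log2 fold change of −2.45 ± 0.59 (adjusted p = 0.0036). Its cyclin partner Ccnb1 had 1.66, 0 and 0 CPM with LPS, against 4.27, 4.42 and 4.48 CPM with vehicle. The groups do not overlap, but the test was not passed (−2.38 ± 0.97, adjusted p = 0.067). Ccna2, the cyclin of S phase and G2, was at 0 in all LPS libraries and at least 6.23-fold lower (adjusted p = 0.008), and so was the Polo kinase Plk1, at least 5.31-fold lower (adjusted p = 0.019, lost without vehicle replicate 1 at 0.059 or LPS replicate 1 at 0.073). Cdc20, the activator of the anaphase-promoting complex, fell by 2.61 ± 0.84 (adjusted p = 0.022). Without LPS replicate 3 the estimate was −3.66 (adjusted p = 0.0013). It was −2.39 without LPS replicate 1 (adjusted p = 0.068) and −1.94 without LPS replicate 2 (adjusted p = 0.062), and the call was also lost without vehicle replicate 2 or 3 (adjusted p = 0.057 and 0.051). The remaining 6 genes of these roles, Ccnb2, Aurka, Aurkb, Bub1, Bub1b and Ube2c, had log2 fold changes between −2.21 and −0.12 and did not pass the test. Bub1b had 1.32, 1.12 and 16.3 CPM with LPS, against 8.35, 18.4 and 8.49 CPM with vehicle, and was called lower without LPS replicate 3 (−3.14 ± 0.68, adjusted p = 0.001).

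Of 9 spindle, kinetochore and cytokinesis genes, 5 fell and 1 rose. Cenpa, the histone that marks centromeres (chr5:30666877-30674837, plus strand), averaged 7.42 ± 6.92 CPM with LPS and 63.5 ± 12.9 CPM with vehicle (n = 3 each), a log2 fold change of −2.94 ± 0.48 (adjusted p = 0.00014), or −3.81 without LPS replicate 2 (adjusted p = 3.1e-05). Kif11, the kinesin that pushes spindle poles apart, fell by 3.17 ± 0.69 (adjusted p = 0.0017). Kif20a, a kinesin of cytokinesis, fell by 1.85 ± 0.68 (adjusted p = 0.041), or by 3.40 without LPS replicate 1 (adjusted p = 0.0087). That call was lost in 13 of 19 alternative fits, among them those without LPS replicate 2 (−1.44, adjusted p = 0.13), LPS replicate 3 (−1.55, adjusted p = 0.063) or any 1 vehicle library (adjusted p from 0.065 to 0.096). Birc5, the survivin subunit of the Aurora B complex, had 0, 0 and 0 CPM with LPS, against 9.52, 6.46 and 5.92 CPM with vehicle, at least 14.1-fold lower (adjusted p = 0.00036). Prc1, which bundles the central spindle, had 0, 0 and 0 CPM with LPS, against 11.9, 5.44 and 6.73 CPM with vehicle, at least 16.5-fold lower (adjusted p = 0.00035). Tpx2, which activates Aurora A and nucleates spindle microtubules (chr2:152847964-152895321, plus strand), went the other way, with 33.4, 60.6 and 38.1 CPM with LPS, against 4.86, 9.18 and 9.61 CPM with vehicle. Every LPS library lies above every vehicle library, a log2 fold change of 2.51 ± 0.41 (adjusted p = 0.00014). Cenpe, Cenpf and Nusap1 had estimates from −2.25 to −0.04 and did not pass the test.

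Chromosome structure genes were mixed. Top2a, the topoisomerase that untangles sister chromosomes, had 15.9, 16.8 and 0 CPM with LPS, against 38.4, 31.6 and 36.2 CPM with vehicle. The groups do not overlap, and the log2 fold change was −1.47 ± 0.47 (adjusted p = 0.022), or −1.08 ± 0.32 without LPS replicate 3 (adjusted p = 0.012). The call was lost without vehicle replicate 1 (adjusted p = 0.061) or 3 (adjusted p = 0.055). The condensin subunits Smc2 and Smc4 fell by 1.06 ± 0.33 (adjusted p = 0.018) and 1.08 ± 0.41 (adjusted p = 0.047). The call of Smc2 was lost without LPS replicate 1 (adjusted p = 0.058) or vehicle replicate 1 or 3 (adjusted p = 0.053 and 0.06), and that of Smc4 without any 1 LPS or vehicle library (adjusted p from 0.055 to 0.1). Mki67, the surface protein of mitotic chromosomes used as a marker of dividing cells, had 24.5, 39.3 and 3.63 CPM with LPS, against 13.4, 12.6 and 11.5 CPM with vehicle, so that 2 LPS libraries lie above and 1 below all vehicle libraries (0.96 ± 0.52, adjusted p = 0.16). Without LPS replicate 3 it rose by 1.37 ± 0.40 (adjusted p = 0.011). Hmgb2, a DNA-bending protein, had 166, 272 and 897 CPM with LPS, against 126, 260 and 170 CPM with vehicle, and its call as higher (1.25 ± 0.47, adjusted p = 0.047) rests on LPS replicate 3, since without it the change was 0.27 ± 0.32 (adjusted p = 0.53). Stmn1 and Tuba1b, a regulator and a subunit of microtubules, did not pass the test (−0.72 ± 0.51 and −0.06 ± 0.46).

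**Figure D3:**
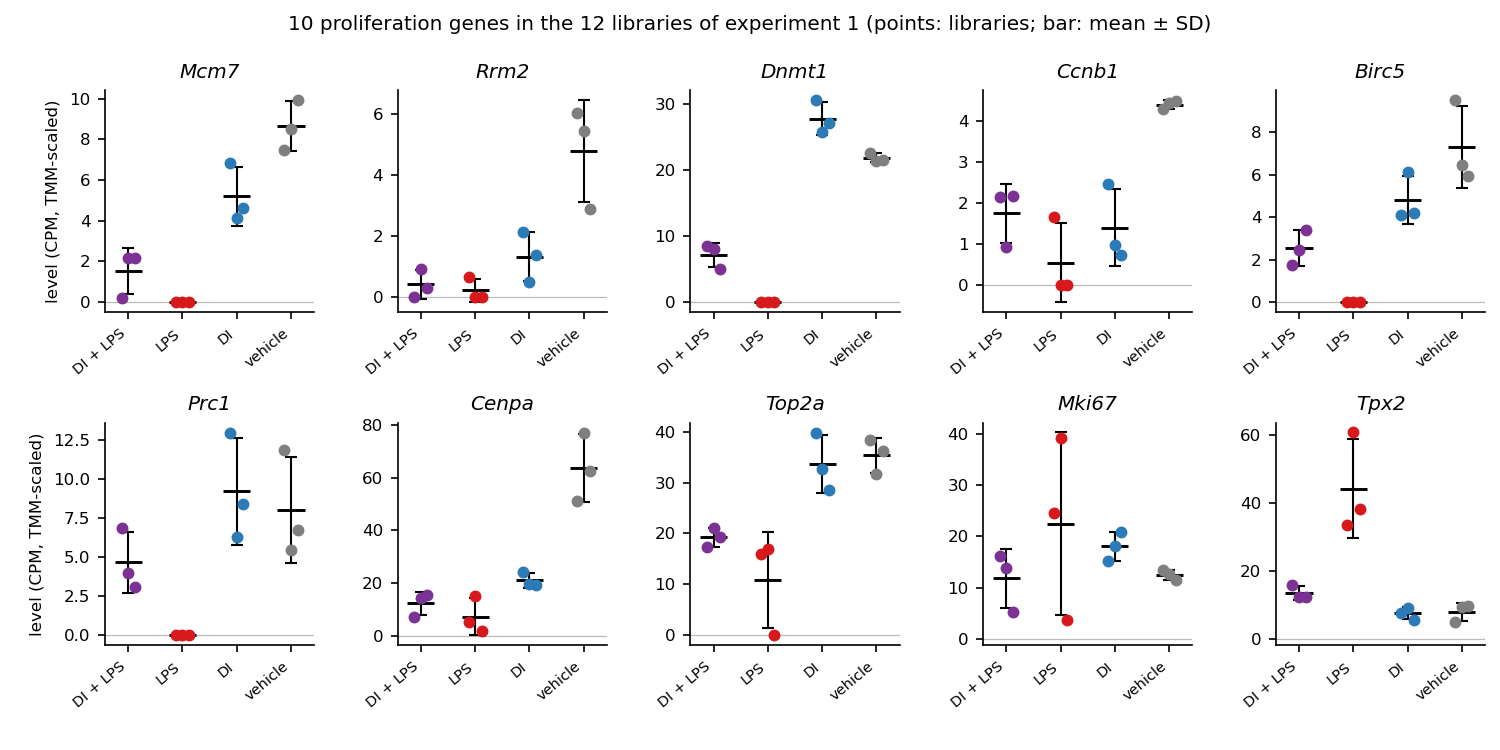
Each panel is a gene in experiment 1, each point a library, and the bar the mean with its SD (n = 3 per group), in CPM. Mcm7, Dnmt1, Birc5 and Prc1 lie at 0 in all 3 LPS libraries and above 0 in every library of the other groups, while Tpx2 is highest with LPS, at 33.4 to 60.6 CPM.

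At 0 in all 3 LPS libraries were 9 of the 41 genes, namely Birc5, Ccna2, Plk1, Mcm5, Mcm7, Dnmt1, Tk1, Cdc6 and Prc1. Of the 39 tested, 7 were, against 391 of 10285 genes tested (3.80%). In the other 3 groups none was, where 0.146% to 0.243% of genes tested were. Such a gene passes the filter on reads only through the other groups, so its count is a description. The excess of zeros between the LPS libraries, given above, was highest in LPS replicate 3, and its part in these 9 genes was not tested. Counting strand is not given in the sources used here, so reads of overlapping genes on the other strand cannot be told apart for Mcm7 (Ap4m1), Ccna2 (Exosc9), Prc1 (Rccd1), Tk1 (Afmid), Aurka (Cstf1), Cdc20 (Elovl1), Nusap1 (Oip5) and Kif20a (Brd8, Cdc23), and copies are listed for Ccnb1, Ccnb2, Pcna, Tyms and Stmn1, whose counts are uncertain in the same way.

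Other genes of the same pathways were counted in lists that hold none of the 41, where again 18.4% of all genes fell and 16.0% rose. Of 35 other replication genes tested (39 listed), 8 fell and none rose (none at an unadjusted p under 0.05 or by DESeq2), including Gmnn, the inhibitor of origin loading (0.485 ± 0.577 CPM with LPS and 30.4 ± 10.7 CPM with vehicle, log2 fold change −5.70 ± 0.64, adjusted p = 2.1e-06), Prim1, a primase subunit (at least 5.86-fold, adjusted p = 0.0082), and Rpa3 (−2.43 ± 0.75, adjusted p = 0.017). Of 34 other mitosis genes (49 listed), 17 fell, led by the central spindle kinesin Kif23 (−5.37 ± 0.79, adjusted p = 4e-05), the condensin subunit Ncapg2 (−2.65 ± 0.50, adjusted p = 0.00047) and the kinetochore protein Ndc80 (at least 8.52-fold, adjusted p = 0.0015). The 1 that rose was Pttg1, securin, with 173 ± 29.2 CPM with LPS and 45.9 ± 1.39 CPM with vehicle (1.91 ± 0.33, adjusted p = 0.00024). Their medians were −0.94 and −1.77.

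Of 22 E2F, DREAM and G1/S regulators (24 listed), 7 fell and 2 rose, where 18.4% and 16.0% of all genes did. The activators E2f1 (−2.50 ± 0.57, adjusted p = 0.0024) and E2f2 (at 0 with LPS, at least 11.5-fold, adjusted p = 0.0016) and their partner Tfdp2 (−4.29 ± 0.84, adjusted p = 0.00068) fell. Rbl1, the p107 pocket protein, rose, with 60.4 ± 25.1 CPM with LPS and 6.91 ± 2.58 CPM with vehicle (3.14 ± 0.41, adjusted p = 1.1e-05), and so did Ccne1, the cyclin of S phase entry, with 34.4 ± 28.6 and 2.48 ± 0.877 CPM (3.74 ± 0.63, adjusted p = 0.00016). Of 7 S phase repair genes (15 listed), 3 fell and none rose (none at an unadjusted p under 0.05 or by DESeq2), among them the mismatch repair gene Msh6 (−2.06 ± 0.77, adjusted p = 0.045) and Rad51ap1 (at least 5.95-fold, adjusted p = 0.0062). Among genes of macrophage growth control, the M-CSF receptor Csf1r fell (−0.92 ± 0.33, adjusted p = 0.036), and Maf, a factor known to hold back macrophage division, rose (1.29 ± 0.31, adjusted p = 0.0034).

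DI alone moved few of the genes. Of 39 tested in DI against vehicle libraries, 1 fell and none rose, where 1.51% and 1.33% of all genes fell and rose. The groups did not overlap for 11 of the 39, against 30.5% of all genes, so that count is near the share of all genes. At an unadjusted p under 0.05, 4 were lower and none higher, and DESeq2 called 2 lower and none higher, both without a share of all genes to compare. The median log2 fold change was −0.38, against −0.05 over all genes. The gene that fell was Cenpa, at 24.2, 19.8 and 19.3 CPM with DI, against 51.2, 76.8 and 62.4 CPM with vehicle. Every DI library lies below every vehicle library, and the log2 fold change was −1.58 ± 0.42 (adjusted p = 0.047). That call was lost in 10 of 19 alternative fits, namely the one with a term for replicate number and each that left out a vehicle, DI or DI plus LPS library (adjusted p from 0.0015 to 0.21 over all 19), while the fold change stayed between −1.77 and −1.42.

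Cdk1 and Tk1 also lay apart between DI and vehicle. Cdk1 had 9.18, 10.1 and 5.77 CPM with DI, against 24.8, 25.8 and 19.4 CPM with vehicle, and missed the threshold (−1.48 ± 0.50, adjusted p = 0.14) but passed in the fit without LPS replicate 3 (−1.46 ± 0.40, adjusted p = 0.027), a library of neither group. Tk1, not tested with all libraries, had 0, 0.165 and 0 CPM with DI, against 3.01, 2.38 and 1.44 CPM with vehicle, which is 1 read against 47, a scaled ratio of 0.0172 (95% counting interval 0.000427 to 0.101). It was called lower in the fit without LPS replicate 3 (adjusted p = 0.017), so that 3 genes fell there, and 2 fell in each fit without LPS replicate 1 or 2. For these fits no share of all genes is given. Mki67 and Dnmt1 were on the other side, with values that do not overlap but did not pass the test: Mki67 had 15.2, 18.2 and 20.9 CPM with DI, against 13.4, 12.6 and 11.5 CPM with vehicle (0.53 ± 0.50, adjusted p = 0.72). Dnmt1 had 30.6, 25.8 and 27.0 CPM with DI, against 22.6, 21.4 and 21.5 CPM with vehicle (0.35 ± 0.36, adjusted p = 0.74).

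Several further genes were lower with DI by estimate only. Rrm2 had 2.12, 0.495 and 1.36 CPM with DI, against 6.02, 5.44 and 2.88 CPM with vehicle (−1.81 ± 0.82, adjusted p = 0.33), and Ccnb1 had 2.47, 0.991 and 0.734 CPM with DI, against 4.27, 4.42 and 4.48 CPM with vehicle (−1.63 ± 0.77, adjusted p = 0.36). Top2a had 39.8, 32.7 and 28.6 CPM with DI, against 38.4, 31.6 and 36.2 CPM with vehicle, which overlap. Mcm7 had 6.83, 4.13 and 4.61 CPM with DI, against 7.48, 8.50 and 9.93 CPM with vehicle, and Birc5 had 4.12, 6.11 and 4.19 CPM with DI, against 9.52, 6.46 and 5.92 CPM with vehicle, and neither passed the test (adjusted p = 0.69 and 0.71). Of the other lists, Maf fell with DI (151 ± 56.6 CPM with DI and 456 ± 83.7 CPM with vehicle, log2 fold change −1.59 ± 0.31, adjusted p = 0.0062), and no replication, mitosis, E2F or repair gene was called. At an unadjusted p under 0.05 these 4 lists held 3, 1, 2 and 0 genes, and DESeq2 called 1 replication gene and none of the others, with no share of all genes given.

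In cells already given DI, LPS lowered Dnmt1 and the condensin subunits Smc2 and Smc4. Of 39 genes tested in DI plus LPS against DI libraries, 3 fell and none rose, where 7.56% and 11.4% of all genes fell and rose. The count that fell is thus near the share of all genes. At an unadjusted p under 0.05, 7 were lower and 2 higher, and DESeq2 called 7 lower and none higher. The median log2 fold change was −0.94, against −0.06 over all genes, and 31 of the 39 estimates were negative. Without LPS replicate 3 in the fit, 7 fell, adding Top2a, Mcm7, Cenpf and Stmn1. For the unadjusted, DESeq2 and LPS replicate 3 counts no share of all genes is given.

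Dnmt1 had 8.43, 7.96 and 4.97 CPM with DI plus LPS, against 30.6, 25.8 and 27.0 CPM with DI, a log2 fold change of −1.95 ± 0.38 (adjusted p = 0.0015). Smc2 had 36.8, 28.5 and 23.3 CPM with DI plus LPS, against 54.7, 79.8 and 63.8 CPM with DI (−1.16 ± 0.31, adjusted p = 0.012). Smc4 had 95.5, 80.2 and 25.2 CPM with DI plus LPS, against 199.6, 171 and 273 CPM with DI (−1.68 ± 0.40, adjusted p = 0.0058). In none of the 3 do the groups overlap, and they did not for 18 of the 39 genes, against 44.6% of all genes. That count is near the share of all genes and is no result about the list. The call of Smc2 was lost without DI replicate 2 (adjusted p = 0.066) or DI plus LPS replicate 3 (adjusted p = 0.07).

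The genes named after LPS alone had these values in the same comparison. Mcm7 had 0.196, 2.14 and 2.17 CPM with DI plus LPS, against 6.83, 4.13 and 4.61 CPM with DI (−1.86 ± 0.73, adjusted p = 0.091), and Top2a had 17.2, 21.1 and 19.3 CPM, against 39.8, 32.7 and 28.6 CPM with DI (−0.81 ± 0.44, adjusted p = 0.23). Neither overlaps between groups and neither passed the test with all libraries. Birc5 had 1.76, 2.45 and 3.42 CPM with DI plus LPS, against 4.12, 6.11 and 4.19 CPM with DI (−0.93 ± 0.60, adjusted p = 0.33). Ccnb1 had 2.16, 0.918 and 2.17 CPM with DI plus LPS, against 2.47, 0.991 and 0.734 CPM with DI, which overlap (0.33 ± 0.81, adjusted p = 0.84). Rrm2 had 0, 0.918 and 0.310 CPM with DI plus LPS, against 2.12, 0.495 and 1.36 CPM with DI (−1.81 ± 1.04, adjusted p = 0.26), and Mcm5 had 1.18, 0 and 0.931 CPM, against 0.824, 0.330 and 1.36 CPM with DI. Mki67 had 16.3, 13.8 and 5.28 CPM with DI plus LPS, against 15.2, 18.2 and 20.9 CPM with DI (−0.60 ± 0.50, adjusted p = 0.47). Tpx2 had 15.7, 12.2 and 12.1 CPM with DI plus LPS, against 7.53, 9.08 and 5.56 CPM with DI, which do not overlap but missed the threshold (0.86 ± 0.40, adjusted p = 0.15).

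**Figure D4:**
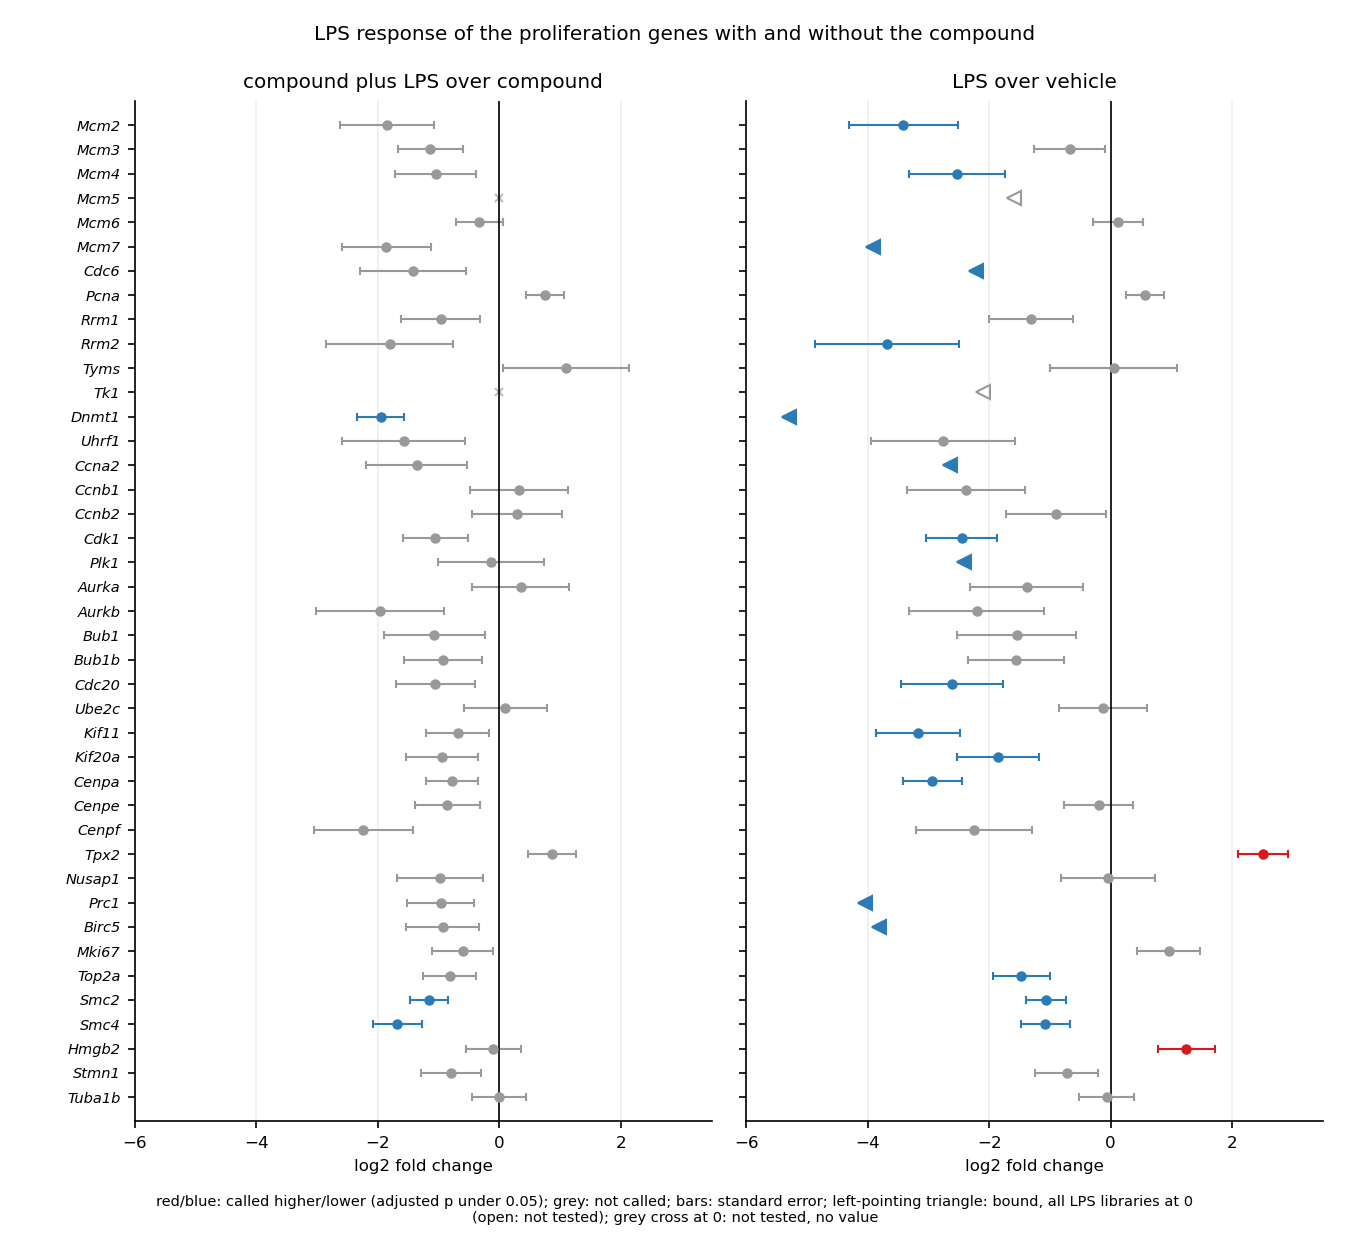
Points are log2 fold changes with their SE for DI plus LPS over DI (left, with DI titled as the compound) and LPS over vehicle (right), red or blue where called, and triangles are bounds for genes at 0 in all LPS libraries. On the left 3 genes are called lower, and on the right 18 are called lower and Tpx2 and Hmgb2 higher.

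The other lists are read against the 7.56% of all genes that fell and the 11.4% that rose in this comparison. Of 35 replication genes 4 fell and 1 rose, among them Gmnn (−2.81 ± 0.43, adjusted p = 9.9e-05), Fen1 (−2.02 ± 0.54, adjusted p = 0.013) and Lig1 (−1.32 ± 0.37, adjusted p = 0.016), with Pola2, a subunit of DNA polymerase alpha, higher (1.50 ± 0.44, adjusted p = 0.021). Of 34 mitosis genes 5 fell, led by Ncapg2 (−2.33 ± 0.46, adjusted p = 0.0012), Fbxo5 (−2.77 ± 0.67, adjusted p = 0.0061) and Kif23 (−2.23 ± 0.55, adjusted p = 0.0068), and Pttg1 rose (1.66 ± 0.33, adjusted p = 0.0012). Of 22 E2F, DREAM and G1/S regulators 3 fell, E2f2, Tfdp2 and Skp2 (adjusted p = 0.00064, 0.0066 and 0.025), and 3 rose, Lin9, E2f4 and Rbl1 (adjusted p = 0.0035, 0.024 and 0.024). Among genes of growth control, Myc rose (2.13 ± 0.52, adjusted p = 0.0067).

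Set against LPS alone, DI plus LPS had 4 genes called. Of 39 tested, 3 rose and 1 fell, where 8.38% and 7.53% of all genes rose and fell, and the median log2 fold change was 0.31, against 0.13 over all genes. The groups did not overlap for 10 of the 39, against 29.6% of all genes. None of these counts exceeds the share of all genes. The 3 that rose were at 0 in all LPS libraries and pass the filter on reads only through the other groups. Without LPS replicate 3, 4 rose and 2 fell, adding Bub1b and Mki67 (−1.42 ± 0.41, adjusted p = 0.018), with no share of all genes given. Dnmt1 had 8.43, 7.96 and 4.97 CPM with DI plus LPS, against 0 in all LPS libraries, at least 13.1-fold higher (adjusted p = 0.0002). Prc1 had 6.86, 3.98 and 3.10 CPM with DI plus LPS, against 0 in all LPS libraries, at least 8.93-fold higher (adjusted p = 0.0039). Birc5 had 1.76, 2.45 and 3.42 CPM with DI plus LPS, against 0 in all LPS libraries, at least 4.31-fold higher (adjusted p = 0.012). The limit of 5.45 CPM in LPS replicate 3 lies above each Birc5 value, so that library by itself cannot show the difference.

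Tpx2 was the gene that fell, with 15.7, 12.2 and 12.1 CPM with DI plus LPS, against 33.4, 60.6 and 38.1 CPM with LPS, a log2 fold change of −1.72 ± 0.40 (adjusted p = 0.0071). Every DI plus LPS library lies below every LPS library. Same-numbered libraries of these 2 groups deviated together only weakly (correlations of their deviations 0.132, 0.122 and 0.210). A term for replicate number left all 4 calls in place. With only these 2 groups in the fit, Birc5 and Prc1 no longer had enough reads to be tested.

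Of the 39 genes tested, 35 did not pass the test between these 2 groups. The remaining 5 genes at 0 in all LPS libraries and with 9 or more reads with DI plus LPS had low bounds: Plk1 at least 2.62-fold higher (adjusted p = 0.078), Mcm7 at least 2.31-fold (adjusted p = 0.065), Ccna2 at least 1.85-fold (adjusted p = 0.1), Cdc6 at least 1.39-fold (adjusted p = 0.16) and the untested Mcm5 at least 1.39-fold. Mki67 had 16.3, 13.8 and 5.28 CPM with DI plus LPS, against 24.5, 39.3 and 3.63 CPM with LPS (−1.03 ± 0.52, adjusted p = 0.2). Top2a had 17.2, 21.1 and 19.3 CPM with DI plus LPS, against 15.9, 16.8 and 0 CPM with LPS (0.58 ± 0.48, adjusted p = 0.45). Ccnb1 and Rrm2 overlap between the groups, with 21 reads against 5 and 4 reads against 2. Cenpa averaged 12.4 ± 4.48 CPM with DI plus LPS and 7.42 ± 6.92 CPM with LPS (0.57 ± 0.49, adjusted p = 0.47).

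Among the other lists, Gmnn rose (2.65 ± 0.74, adjusted p = 0.021) and E2f1 rose (1.87 ± 0.57, adjusted p = 0.035) with DI plus LPS over LPS, while Fen1 (−2.39 ± 0.59, adjusted p = 0.01), Timeless (−2.40 ± 0.79, adjusted p = 0.045), Rbl1 (−1.46 ± 0.38, adjusted p = 0.015), Ccne1 (−1.89 ± 0.57, adjusted p = 0.031) and E2f8 (−2.89 ± 0.93, adjusted p = 0.042) fell. Maf fell to 103 ± 9.81 CPM with DI plus LPS, against 1111 ± 169 CPM with LPS (−3.43 ± 0.33, adjusted p = 4.7e-06). Of 35 replication genes 1 rose and 2 fell, and of 22 E2F, DREAM and G1/S regulators 1 rose and 3 fell. Over all genes 8.38% rose and 7.53% fell. None of 34 mitosis genes was called, with 6 higher at an unadjusted p under 0.05 and 1 higher by DESeq2 and with the term for replicate number. With that term 1 replication gene and 1 E2F and G1/S gene fell, not 2 and 3. In that fit 787 of 10285 genes rose and 678 fell. For the unadjusted and DESeq2 counts no share of all genes is given.

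The difference between both LPS responses was tested directly, as the interaction of DI and LPS. Of 39 genes tested, 3 had a higher LPS response in DI cells and none a lower one, where 1.39% and 1.52% of all genes did. At an unadjusted p under 0.05, 10 were higher and 2 lower, and DESeq2 called 4 higher and 1 lower. The share of all genes at these settings is not given here, so these counts cannot be read against it. The 3 were Dnmt1 (adjusted p = 0.0042), Prc1 (adjusted p = 0.036) and Birc5 (adjusted p = 0.037), each at 0 in all LPS libraries, so no fold is given. Such genes pass the filter on reads only through the other groups. Of the 39, 7 were at 0 in all LPS libraries, against 3.80% of all genes tested. The count of 3 is therefore a description, and no excess over all genes is read from it. Dnmt1 was called in 18 of 18 alternative fits (adjusted p from 0.00044 to 0.018). Prc1 was called in 8 (0.0098 to 0.1) and Birc5 in 6 (0.011 to 0.11), both calls being lost without any 1 DI or DI plus LPS library, without vehicle replicate 1 or 3, and without LPS replicate 1 or 2. After LPS, Dnmt1 was 3.87-fold lower in DI cells, against at least 39.4-fold in vehicle cells. Prc1 was lower by an estimate of 1.95-fold in DI cells, against a bound of 16.5-fold in vehicle cells, and Birc5 by 1.90-fold, against a bound of 14.1-fold. In DI cells neither passed the test. Without LPS replicate 3, 4 were higher, adding Cenpa (1.87 ± 0.55, adjusted p = 0.043), and Mki67 was lower (−1.97 ± 0.54, adjusted p = 0.029), with no share of all genes given. For the other 36 genes tested a difference between both responses was not shown with all libraries, Tpx2 included (−1.65 ± 0.56, adjusted p = 0.12).

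Summed levels follow a few genes. Over all 41 genes the sums were 839 ± 59.2 CPM with DI plus LPS and 953 ± 317 CPM with LPS (SD, n = 3 each). They were 1053 ± 47.6 CPM with DI and 962 ± 62.6 CPM with vehicle (SD, n = 3 each). LPS and vehicle overlap in this sum, and LPS replicate 3 had the highest of all libraries of experiment 1, 1311 CPM. Hmgb2, Pcna and Smc4 made up 42.7% to 85.0% of the summed CPM of the 41 genes in experiment 1. The remaining 38 genes summed to 276 ± 9.63 CPM with DI plus LPS, 268 ± 72.1 CPM with LPS, 447 ± 38.2 CPM with DI and 521 ± 6.94 CPM with vehicle (SD, n = 3 each). For these 38 genes only, both groups with LPS lie below both groups without it in every library. The highest with LPS was 340.2 CPM in LPS replicate 2, and the lowest without it 403 CPM in DI replicate 3. No test was made of a sum over chosen genes.

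In experiment 2 the knockout was visible in the targeted gene. Acod1 had 28.4, 14.8 and 31.4 CPM in Irg1-/- cells, against 4131, 4665 and 4225 CPM in WT cells, a log2 fold change of −7.43 ± 0.32 (adjusted p = 4.8e-07). After 24 h of LPS plus IFNg, 22 of the 41 proliferation genes had too few reads to be tested. Ccna2, Ccnb1 and Ube2c were at 0 in all Irg1-/- libraries and had 4, 3 and 2 reads in WT, and Tk1 had 4 reads in Irg1-/- cells and 0 in WT. These counts lie at or near the limit of 3 reads.

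Of the 19 genes tested between Irg1-/- and WT cells, none was called in either direction, where 0.0105% and 0.0527% of all 9491 genes rose and fell. At an unadjusted p under 0.05, 1 was higher and 1 lower, and DESeq2 called 1 lower. The median log2 fold change was 0.05, against 0.01 over all genes. Same-numbered libraries of both genotypes deviated together (correlations of their deviations 0.401, 0.383 and 0.486). With the replicate number in the fit, 1 gene rose and 1 fell, where 2.90% and 3.36% of all genes did. That fit leaves 2 residual degrees of freedom.

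The gene that fell with the replicate term was Cenpa, with 13.3, 10.3 and 12.3 CPM in Irg1-/- cells, against 28.2, 30.0 and 40.6 CPM in WT cells. Every Irg1-/- library lies below every WT library, and the log2 fold change was −1.46 ± 0.24 (adjusted p = 0.054), or −1.45 ± 0.20 with the term (adjusted p = 1.7e-06). DESeq2 and the fit without a filter on reads also called it. The gene that rose was Hmgb2, with 260, 254 and 242 CPM in Irg1-/- cells, against 165, 193 and 146 CPM in WT cells (0.59 ± 0.18, adjusted p = 0.5, or 0.60 ± 0.10 with the term, adjusted p = 0.00012). Its groups do not overlap either.

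The other 17 genes tested overlapped between genotypes. Over all 9491 genes tested, the groups did not overlap in 13.4%, so 2 of 19 is near that share. Dnmt1 had 56.0, 53.7 and 54.7 CPM in Irg1-/- cells, against 54.4, 58.7 and 46.3 CPM in WT cells (0.05 ± 0.19, adjusted p = 0.99). Mki67 had 5.52, 5.82 and 7.77 CPM in Irg1-/- cells, against 5.97, 3.83 and 3.97 CPM in WT cells (0.49 ± 0.36, adjusted p = 0.92), and Top2a had 7.05, 4.50 and 1.55 CPM, against 2.32, 2.23 and 3.75 CPM in WT cells (0.61 ± 0.56, adjusted p = 0.94). Prc1 had 0.952, 6.62 and 3.11 CPM in Irg1-/- cells, against 3.31, 3.83 and 3.75 CPM in WT cells (−0.09 ± 0.58, adjusted p = 0.99). Tpx2 averaged 89.6 ± 11.3 CPM in Irg1-/- cells and 103 ± 20.5 CPM in WT cells (n = 3 each). Birc5, Mcm5, Mcm7, Ccnb1 and Rrm2 were not tested, with at most 19 reads in either genotype.

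**Figure D5:**
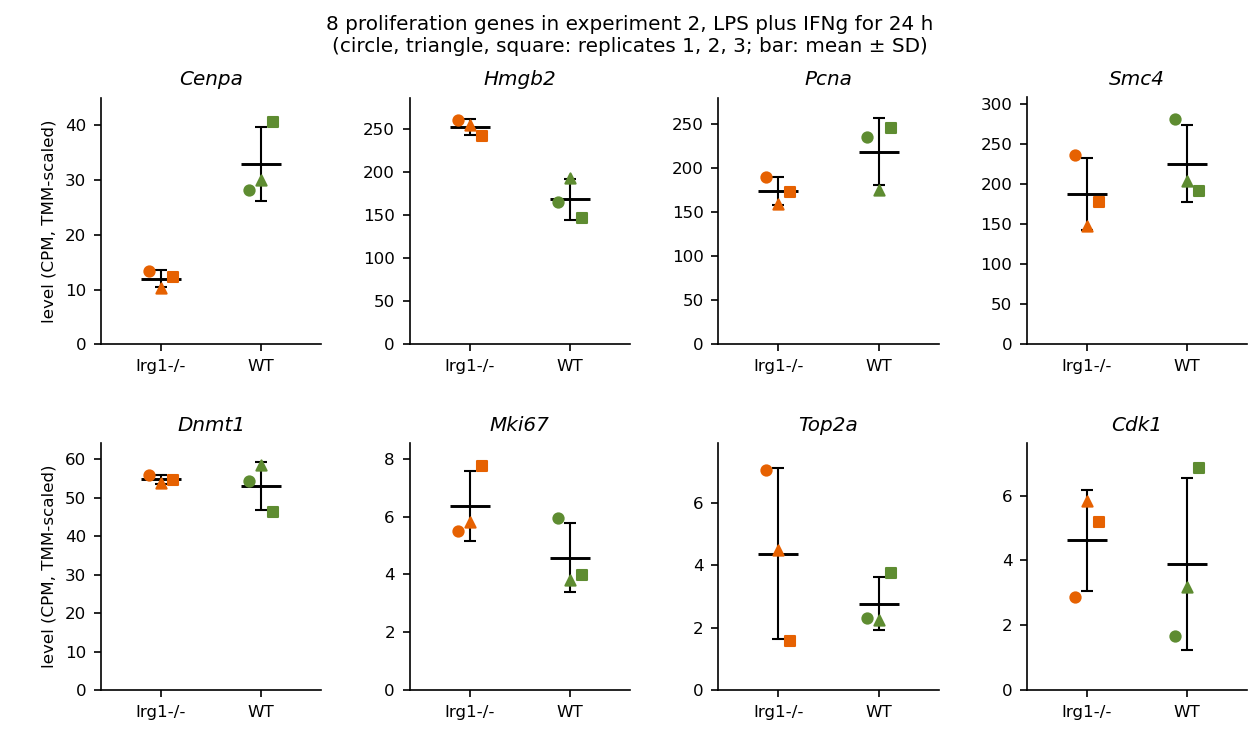
Each panel is a gene in experiment 2, after 24 h of LPS plus IFNg, each marker a library (its shape the replicate number), and the bar the mean with its SD (n = 3 per group), in CPM. Cenpa lies lower in all Irg1-/- libraries (10.3 to 13.3 CPM) than in WT (28.2 to 40.6 CPM), Hmgb2 lies higher (242 to 260 against 146 to 193 CPM), and the other 6 genes overlap.

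Of the other lists, none of 27 replication, 15 mitosis, 20 E2F and G1/S, 7 repair and 5 growth control genes tested was called between genotypes, and DESeq2 called none. At an unadjusted p under 0.05, 1 replication gene was lower and 1 E2F and G1/S gene higher, with no share of all genes given. With the replicate term, 1 replication gene rose and 1 fell, 1 E2F and G1/S gene fell, and 2 growth control genes rose and 1 fell. In that fit 2.90% and 3.36% of all 9491 genes rose and fell.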

How the data were processed

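Polyadenylated RNA of 18 libraries was reverse transcribed from barcoded oligo-dT primers and amplified, per the labels' protocols. The authors deposited 2 tables of raw counts per gene with Entrez identifiers. STAR, HTSeq, DESeq2 and build mm10 are named without versions, per the submitters' processing notes; annotation and counting options are not given in the sources used here. Of 24052 genes, 23969 were matched to a symbol (GRCm38.p6) and 83 were not. Those of the 83 with enough reads were tested but not named.

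Each table was fitted with edgeR 4.0.16 (R 4.3.3): TMM scaling on whole library totals, filterByExpr with a minimum count of 10, a mean per group, quasi-likelihood F tests, 2-sided, and Benjamini-Hochberg adjustment over all 10285 or 9491 genes tested, with 8 and 4 residual degrees of freedom. Genes were called at an adjusted p under 0.05. DESeq2 1.42.0 was an alternative. Shares of all genes called are given for the main fits and, in experiment 2, for the fit with replicate number. Counts at an unadjusted p, by DESeq2 or in other alternative fits have no such share beside them. Whether those counts exceed the share of all genes was not tested. Each standard error is the log2 fold change divided by the square root of F. Where a group had 0 reads of a gene, its pooled scaled count was set to 3 reads to give the bound, and for 1 to 3 counts the ratio has a 95% exact counting interval.

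Replicate numbers were taken to pair libraries where all 3 correlations of deviations from the group means exceeded 0.1. This held for DI plus LPS with LPS (0.132, 0.122 and 0.210) and for Irg1-/- with WT. The fit without the term is the main one throughout.

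All 41 genes are accounted for. Genes past the threshold are named, values per library are given for Mki67, Top2a, Mcm5, Mcm7, Ccnb1, Birc5, Dnmt1 and Rrm2 and for those that passed the interaction or knockout comparison, and of each other list the 3 genes with the smallest adjusted p per direction are named. Values per library of other genes (among them Mcm6, Pcna, Cdk1, Tk1, Cenpa and Bub1b) were chosen after their values were seen. The genes, lists and tests were chosen with earlier results of these data known. The treatment text of the WT libraries of experiment 2 names Irg1-/- cells, while their genotype label and Acod1 levels are those of wild type. Results of a few genes of the other lists are not reported here.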

Additional observations from a re-analysis of the deposited data

Results flagged for a closer look

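The genes Dnmt1, Prc1 and Birc5 differed between groups in their response to LPS, by the test of the interaction of DI and LPS (edgeR's quasi-likelihood test, adjusted over all genes). All 3 were at 0 in all LPS libraries and passed the filter on reads only through the other groups, so their count is a description. Of 18 alternative fits, the call held in 18 for Dnmt1, but in 8 for Prc1 and 6 for Birc5. In DI cells, the LPS response of Prc1 and of Birc5 did not pass the test. Dnmt1 had an adjusted p of 0.0042. It had 7.12 ± 1.88 CPM with DI plus LPS, 0 in all 3 LPS libraries, 27.8 ± 2.50 CPM with DI and 21.8 ± 0.691 CPM with vehicle (SD, n = 3 each). Prc1 had an adjusted p of 0.036, with 4.65 ± 1.97 CPM with DI plus LPS, 0 in all LPS libraries, 9.20 ± 3.41 CPM with DI and 8.01 ± 3.39 CPM with vehicle. Birc5 had an adjusted p of 0.037, with 2.54 ± 0.830 CPM with DI plus LPS, 0 in all LPS libraries, 4.81 ± 1.13 CPM with DI and 7.30 ± 1.94 CPM with vehicle. At vehicle levels 118, 49.5 and 42.3 reads of Dnmt1, Prc1 and Birc5 would have been predicted in the LPS libraries. In the LPS libraries 2.09% to 4.33% of genes with at least 10 reads predicted from the other 2 libraries of the group were at 0, against 0.0892% to 0.264% in the remaining libraries of experiment 1, and the part of these zeros in the results was not tested.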

How the results depend on the processing

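Over 582 refits of called genes, 488 kept the call and 94 kept the direction only. The call of Hmgb2 as higher with LPS was lost in 15 of 19 fits, Kif20a as lower in 13, Smc4 in 12, Cdc20 in 5, Smc2 in 4, Mcm4 and Top2a in 3, Rrm2 and Plk1 in 2 and Cdc6 in 1. For LPS over vehicle, genes called higher were 1 under DESeq2 size factors, library totals, upper-quartile factors, DESeq2, the replicate block and the 2-group fit, and genes called lower were 28 under library totals and 10 in the 2-group fit. For DI over vehicle, genes lower were 2 with DESeq2, 0 with the replicate block and 3 in the 2-group fit. For DI plus LPS over LPS, genes lower were 2 without a filter and genes higher 1 in the 2-group fit. For DI plus LPS over DI, genes lower were 10 under library totals, 7 with DESeq2 and 10 in the 2-group fit, where 1 (Pcna) was higher. For the interaction, DESeq2 called 1 lower. For Irg1-/- over WT, 1 gene (Cenpa) was lower without a filter, with DESeq2 and with the replicate block, which called 1 higher. Causes were not tested. No share of all genes stands beside these counts, so they show how the calls depend on the fit and are no result about the list. The replicate block also ended the calls of Kif20a (adjusted p = 0.066) and Hmgb2 (0.055) for LPS over vehicle, Cenpa for DI over vehicle (0.061) and Birc5 in the interaction (0.069), in comparisons whose same-numbered libraries were not all correlated (−0.163 to 0.277), and changed no other call of the 41 genes in experiment 1.

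Leaving out 1 library at a time, counts ran from 12 to 18 lower and 1 to 2 higher for LPS over vehicle, 0 to 3 lower for DI over vehicle, 3 to 4 higher and 1 to 2 lower for DI plus LPS over LPS, 2 to 7 lower and 0 to 1 higher for DI plus LPS over DI, and 1 to 4 higher and 0 to 1 lower for the interaction, and stayed at 0 for Irg1-/- over WT. These counts likewise have no share of all genes beside them. The fewest falls with LPS came without vehicle replicate 1. Scaling by library totals moved the median of all genes from −0.24 to −1.17 for LPS over vehicle, where the median of the list was −2.53. Depth limits the LPS group most: in LPS replicate 3 a count of 0 allows 5.45 CPM.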
